A study of Mus musculus with 15 samples.

Results

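Interferon-stimulated genes are the genes that cells switch on in response to interferons, and the antigen processing genes that load peptides onto MHC class I molecules belong to the same response. A set of 40 mouse genes of both kinds, chosen by symbol for these functions, was followed among the 55421 gene IDs of a table of TPM values (a length-corrected share of all transcripts) from CD4 T cell cultures. All 40 had a row. By role, 12 are antiviral effectors, 3 are nucleic acid sensors, 5 regulate transcription, 7 act in ISG15, ubiquitin or ADP-ribose modification, 7 act in antigen processing and 6 are other interferon-inducible genes. 35 of the 40 reached 1 TPM in at least 3 libraries and were tested. Ifit1, Oas1a, Oasl1, Rsad2 and Ifi44 did not, and their highest value in any library was 1.24 TPM, for Ifit1 in a knockout library. Of the 35, 28 were at 1 TPM or more in every library, whereas Ifit3, Mx1, Oasl2, Usp18 and Rtp4 had a group mean under 1 TPM and so passed through the groups where they were high.

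The cultures come from a study of STAT3 and T cell receptor signals in TH17 cells, a helper lineage that secretes IL-17. Poly(A) RNA was sequenced from 15 cultures on day 5, with 3 libraries in each of 5 groups. All cultures began as naive CD4 T cells from spleen and lymph node on plate-bound anti-CD3 (2 µg/ml) and anti-CD28 (1 µg/ml). Antibodies against IFNγ and IL-4 (1 µg/ml each) were in the medium of all 5 groups, so the interferon readout is of cultures in which secreted IFNγ was targeted. TH17 cultures had TGFβ at 2.5 ng/ml with IL-6, IL-1β and IL-23 at 10 ng/ml each. These were wild type with DMSO, wild type with Srci1, or STAT3-fl/fl CD4-cre (the STAT3 knockout), in which a Cre driven by Cd4 deletes Stat3 in T cells, with DMSO. Treg cultures, a regulatory lineage, were wild type and had IL-2 at 200 U/ml and TGFβ at 0.5 ng/ml, or at another dose that the protocol leaves to be indicated, with DMSO or Srci1. Comparisons of Treg with TH17 cultures therefore also hold the difference in cytokines and TGFβ. Srci1 is an added compound for which the labels give a name, the addition 24 h after plating and no dose. The labels do not say whether the 3 libraries of a group came from separate mice, so every p-value refers to the spread among libraries, which may be technical.

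Genes that respond to type I interferons often carry a DNA element called the ISRE, which IRF9 and other IRF proteins bind, and many genes that respond to IFNγ carry an element called GAS. IRF1 is an early product of the interferon response and itself drives many antigen processing genes, and NLRC5 is the transactivator of MHC class I genes. In the class I pathway the immunoproteasome subunits Psmb8, Psmb9 and Psmb10 cut proteins into peptides, the transporter made by Tap1 and Tap2 carries the peptides into the endoplasmic reticulum, tapasin (Tapbp) helps to load them, and β2-microglobulin (B2m) is the light chain of the loaded molecule.

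The promoters of the set were read in a window from 250 bases before to 50 bases after each start in RefSeq (GRCm38.p6). 29 of the 40 genes had an entry, with 35 promoters. Mx1, Zbp1, Dhx58, Nlrc5, Usp18, Parp9, Parp14, Ifi27l2a, Rtp4, Ly6e and Tap2 had none. The ISRE core, GAAA, any 2 bases and GAAA again, searched on both strands, was present in 10 of the 35 promoters (28.57%) and in 3.44% of all 32851 RefSeq promoters. The GAS core TTCNNNGAA, which is its own reverse complement, was present in 8 of the 35 (22.86%) and in 8.3% of all. A match describes the letters only and does not show that a factor binds. Isg15, Ifit3 and B2m differed widely in level, and in the STAT3 knockout Ifit3 and B2m were called higher and Isg15 was not called. The 3 sequences below carry ISRE matches in these genes, which encode the protein modifier ISG15, an antiviral effector and the class I light chain. Each is printed 5′ to 3′ on the gene's own strand with the matches in capitals, and TTTC, 2 bases and TTTC is the same core on the other strand.
Isg15: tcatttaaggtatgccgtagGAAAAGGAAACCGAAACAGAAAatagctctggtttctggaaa
Ifit3: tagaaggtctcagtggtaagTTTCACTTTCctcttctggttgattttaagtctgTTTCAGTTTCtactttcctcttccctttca
B2m: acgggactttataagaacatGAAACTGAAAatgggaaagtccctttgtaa

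The Isg15 stretch is chr4:156200855-156200916 on the minus strand and holds 3 overlapping matches, the first at position -78 from the start. The Ifit3 stretch is chr19:34583353-34583436 on the plus strand with 2 matches, the first at -156. The B2m stretch is chr2:122147528-122147577 on the plus strand with 1 match at -139. The next 3 carry GAS matches, in 2 transcription factor genes and an antiviral exonuclease gene that all fell with Srci1 in Treg cultures. Not every gene with a GAS match did so: Samhd1, Ifi35 and Psmb8 were not called there, Bst2 was called lower and Oas1a was not tested.
Irf1: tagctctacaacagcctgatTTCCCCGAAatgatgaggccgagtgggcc
Irf8: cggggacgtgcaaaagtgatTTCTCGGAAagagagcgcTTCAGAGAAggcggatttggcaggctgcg
Isg20: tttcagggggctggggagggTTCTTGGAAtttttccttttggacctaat

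The Irf1 stretch is chr11:53769904-53769952 on the plus strand, with its match at -90. The Irf8 stretch is chr8:120736167-120736233 on the plus strand, with 2 matches, the first at -171. The Isg20 stretch is chr7:78913331-78913379 on the plus strand, with its match at -73. Neither core was found in the promoter windows of Tap1 and Psmb9. These 2 genes lie head to head on chromosome 17, Psmb9 at 34181987-34187764 on the minus strand and Tap1 at 34187553-34197225 on the plus strand (GENCODE M21, GRCm38), so their annotated models overlap and could share reads. Psmb8 (34197721-34201454), Tap2 (34203527-34216321) and Tapbp (33915899-33929292) are on the same chromosome, on the plus strand. Parp9 (plus strand) and Dtx3l (minus strand) also overlap, on chromosome 16.

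Stat3 stood at 33.53, 38.44 and 30.74 TPM in the 3 knockout libraries and at 129.68, 132.94 and 99.78 TPM in the wild-type TH17 DMSO libraries. The values do not say whether the remaining transcripts hold the deleted exons. Stat3 also differed with Srci1, in opposite directions and without overlap. It stood at 158.42, 152.21 and 160.94 TPM in TH17 with Srci1. In Treg cultures it was at 129.57, 133.68 and 139.91 TPM with DMSO and at 76.14, 75.16 and 78.25 TPM with Srci1. Markers of CD4 T cells (Cd3e, Cd3d, Cd3g, Cd4, Trac) summed to between 1385 and 2420 TPM in the 15 libraries, and the NK cell genes Ncr1 and Klra8 were listed at 0 in all of them. The 5 B cell markers summed to 13.34 to 13.84 TPM in the knockout libraries, 0.75 to 0.99 in TH17 DMSO and 1.69 to 3.55 in Treg DMSO. The 3 that could be tested were called higher in the knockout. None could reach the 1 TPM filter in TH17 DMSO, so that direction was largely set by the filter. The 6 myeloid and dendritic markers summed to 2.79 to 3.94 TPM in the knockout and 0.12 to 0.28 in TH17 DMSO. The 4 plasmacytoid dendritic cell markers summed to 13.43 to 16.74 TPM in the knockout, 3.75 to 6.81 in TH17 with Srci1 and 0.06 to 0.43 in TH17 DMSO. However, Siglech, the defining marker, was listed at 0 in every library, and only 1 of the 4 markers could be tested. Their part in the knockout results was not tested. In bulk libraries fewer cells of a type and less RNA per cell cannot be told apart. TH17 DMSO replicate 3 had the highest share of ribosomal protein transcripts (30.42% of TPM, against 20.31% to 29.72% in the others).

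Across the 5 groups the wild-type TH17 DMSO cultures most often had the lowest mean for this set. The group with the highest mean was Treg DMSO for 24 of the 40 genes, the STAT3 knockout for 10, Treg with Srci1 for 5 and TH17 DMSO for 1, Ly6e. The lowest mean was in TH17 DMSO for 25, in TH17 with Srci1 for 11, in the knockout for 3 and in Treg with Srci1 for 1. Among the 35 tested genes, Treg DMSO was highest for 20 and TH17 DMSO lowest for 22. These orders were not counted over all genes. The median log2 change of all tested genes against TH17 DMSO was also positive: 0.13 in the knockout, 0.21 in TH17 with Srci1 and 0.18 in Treg DMSO. The set spanned a wide range of levels per length: B2m averaged 1455 TPM even in TH17 DMSO, Ly6e 1589 TPM and Psmb8 494 TPM, whereas Mx1 averaged 0.357 TPM and Ifit3 0.127 TPM there.

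**Figure D1:**
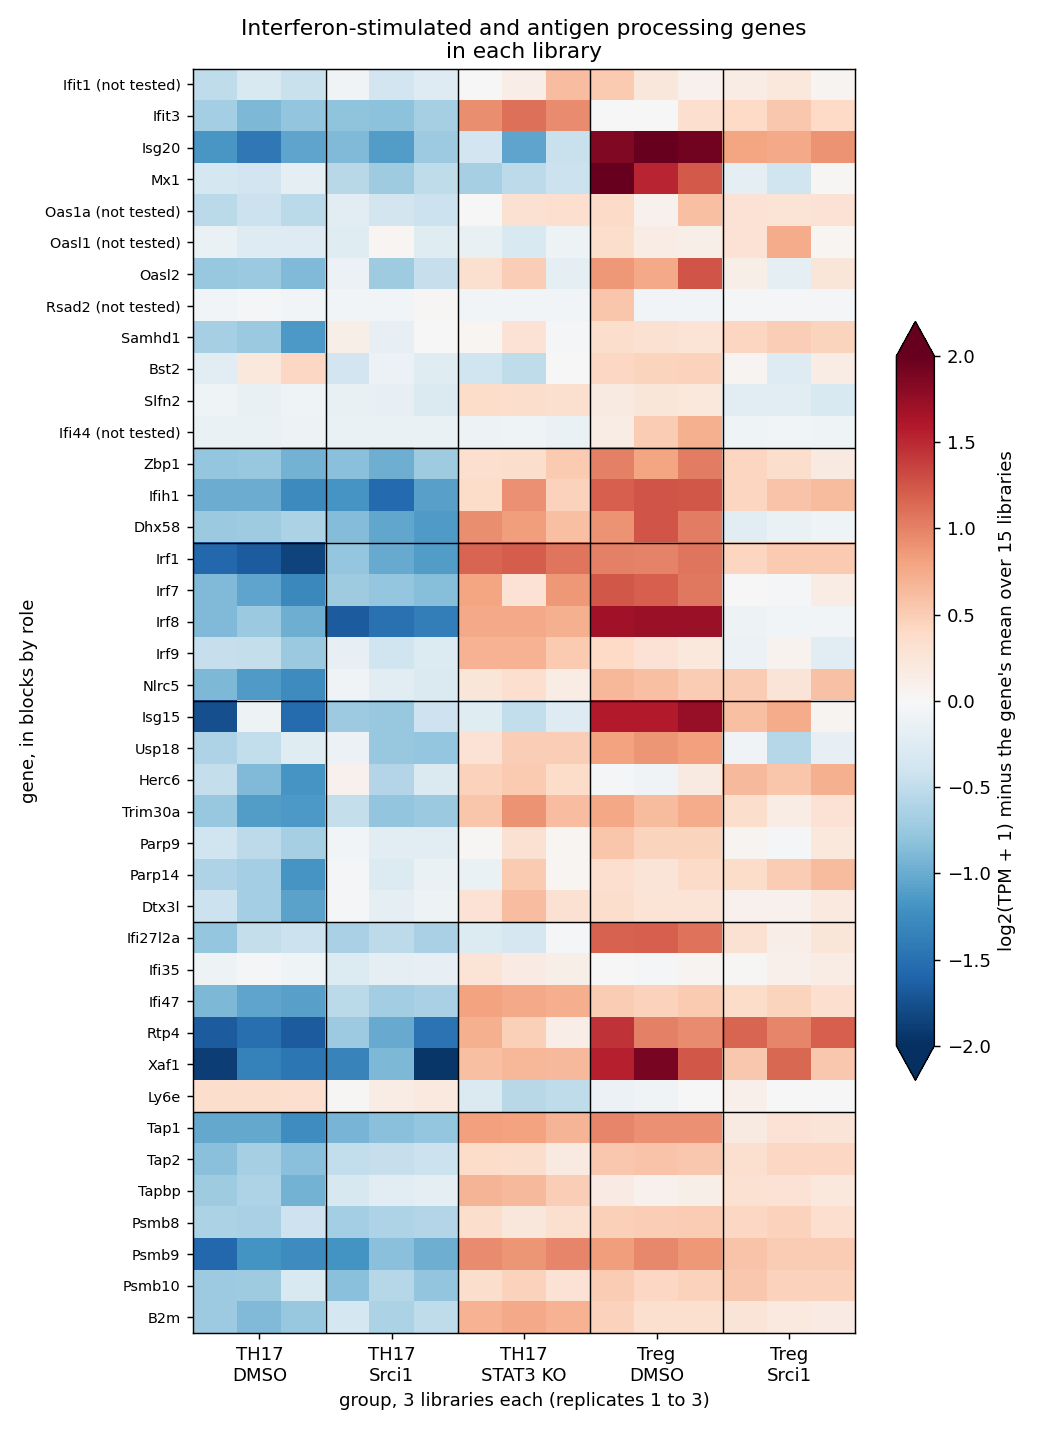
Heat map of the 40 genes (rows, in blocks by role) in 15 libraries (columns, 3 per group), coloured by log2(TPM + 1) minus the gene's mean over all libraries. Most rows are blue in both wild-type TH17 groups and red in the knockout and Treg DMSO libraries. 24 genes had their highest mean in Treg DMSO and 10 in the knockout, an order not counted over all genes.

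Without STAT3, TH17 cultures held more transcript of nearly every tested gene of the set. 31 of 35 rose and 2 fell, where 30.9% of all 12800 tested genes rose and 18.9% fell (limma on log2(TPM + 1), Benjamini-Hochberg adjusted p under 0.05). The median change was 1.20 on the log2 scale against 0.13 for all tested genes, and 21 of the 35 rose at least 2-fold, against 8.81% of all. Counts of 2-fold changes are taken on the log2(TPM + 1) scale, whereas the fold given for a single gene is the ratio of mean TPM and can be larger. In 33 of the 35 the knockout and wild-type libraries did not overlap, against 51.5% of all. Of the 29 genes that averaged at least 5 TPM, 26 rose and 2 fell.

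All 5 transcription regulators rose in the knockout, with a median of 1.62 on the log2 scale. Irf1 (chr11:53770014-53778374, plus strand) stood at 152.6, 157.61 and 142.51 TPM in the knockout and at 22.03, 20.72 and 18.08 TPM in wild type. Every knockout library was far above every wild-type library. The mean was 7.44-fold higher, and the change was 2.84 ± 0.09 on the log2 scale (SE, limma adjusted p = 8.38e-12). Irf8, a factor that also limits TH17 differentiation, was at 183.59, 182.96 and 177.72 TPM against 57.64, 64.24 and 54.12 TPM, a change of 1.62 ± 0.07 (limma adjusted p = 5.13e-10). Irf7, the amplifier of type I interferon, rose from a mean of 2.42 ± 0.49 to 10.5 ± 2.3 TPM (SD, n = 3 libraries), with no overlap of the libraries. Nlrc5 rose 2.59-fold, from 21.4 ± 2.9 to 55.3 ± 3.6 TPM (SD, n = 3 libraries). Irf9, the DNA-binding subunit of the complex that acts on the ISRE, rose 2.36-fold.

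All 7 antigen processing genes rose in the knockout, by a median of 1.36 on the log2 scale. Tap1 stood at 228.36, 224.2 and 205.83 TPM against 62.42, 62.44 and 53.67 TPM in wild type, a change of 1.87 ± 0.07 (limma adjusted p = 5.16e-11). Psmb9 stood at 196.82, 188.42 and 201.39 TPM against 33.86, 43.85 and 42.36 TPM, a change of 2.27 ± 0.10 (limma adjusted p = 2.63e-10). B2m, already among the most abundant transcripts of these cells, stood at 4072, 4247 and 4054 TPM against 1515, 1362 and 1488 TPM, a change of 1.50 ± 0.07 (limma adjusted p = 4.16e-10). In each of these 3 genes the knockout and wild-type libraries were far apart. Tapbp rose 2.57-fold, Tap2 2.13-fold, Psmb10 1.93-fold and Psmb8 1.82-fold.

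The antiviral genes did not move as a block. All 3 sensors rose: Ifih1 (the RNA sensor MDA5) 4.72-fold, Dhx58 (LGP2, a regulator of the RNA sensors) 3.34-fold and Zbp1 (a sensor of Z-form nucleic acid) 2.40-fold. Of the 7 effectors tested, 5 rose, 1 fell and 1 was not called. Ifit3, a binder of foreign RNA whose ISRE matches are shown above, stood at 2.72, 3.19 and 2.73 TPM in the knockout and at 0.21, 0.04 and 0.13 TPM in wild type. Mx1, a GTPase against viruses, stayed at 0.06 to 0.25 TPM in the knockout and 0.29 to 0.47 TPM in wild type and was not called. Bst2 (tetherin, which holds budding virus at the membrane) fell by 0.44 ± 0.16 on the log2 scale (limma adjusted p = 0.0361), a call lost when any of 4 single libraries was left out (TH17 DMSO replicate 2 or 3, knockout replicate 1 or 2, adjusted p up to 0.157). The other effectors that rose were Samhd1 (a nucleotide hydrolase, 1.93-fold), Isg20 (an exonuclease, 1.61-fold), Slfn2 (1.37-fold) and Oasl2, which stood at 1.29, 1.58 and 0.63 TPM against 0.09, 0.1 and 0 TPM. Ifit3 and Oasl2 were under the 1 TPM filter in every wild-type library, so their direction was largely set by the filter.

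Among the modifier genes 6 of 7 rose in the knockout. Trim30a rose 3.66-fold, Herc6 (the mouse ISG15 ligase) 3.12-fold, Usp18 (the ISG15 protease) 2.83-fold, Dtx3l 2.23-fold, Parp14 2.07-fold and Parp9 1.59-fold. Isg15 itself was not called: it stood at 4.15, 3.34 and 4.13 TPM in the knockout and at 0.81, 4.7 and 1.11 TPM in wild type. TH17 DMSO replicate 2 was thus above every knockout library while the other two were below. The change was 0.80 ± 0.33 on the log2 scale (limma adjusted p = 0.0569), and 1.31 without that library (adjusted p = 0.000121), and Isg15 was called with a pseudocount of 0.1 (limma adjusted p = 0.0416). Of the other 6 interferon-inducible genes 5 rose, among them Xaf1, a regulator of apoptosis (12.35, 12.89 and 12.78 TPM against 1.38, 2.44 and 2.22), and Ifi47, an immunity-related GTPase (3.45-fold). Rtp4, listed at 0 in 2 of the 3 wild-type libraries and at 0.11 TPM in the other, stood at 4.19, 3.38 and 2.47 TPM. Its direction too was largely set by the 1 TPM filter. Ifi27l2a rose 1.28-fold and Ifi35 1.19-fold; neither call held under median-of-ratios scaling (adjusted p = 0.208 and 0.223), nor did that of Isg20 (adjusted p = 0.0511, and 0.135 with quantile normalization).

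Ly6e, a surface protein with antiviral functions, went the other way. It stood at 1025, 849 and 883 TPM in the knockout and at 1587, 1599 and 1582 TPM in wild type, with no overlap. It fell by 0.79 on the log2 scale (SE 0.07, limma adjusted p = 3.25e-07).

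**Figure D2:**
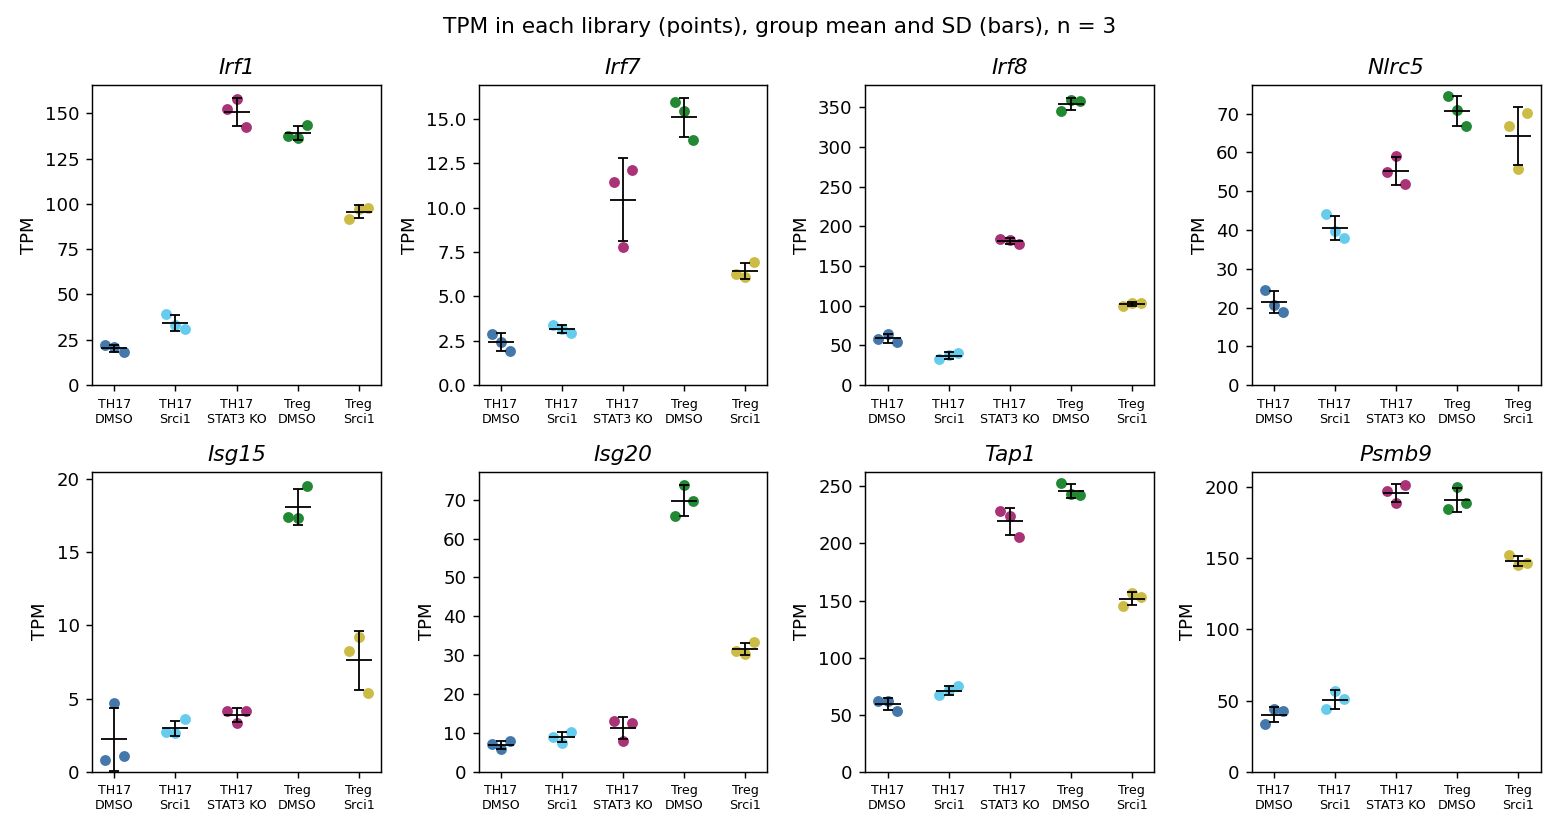
TPM of 8 genes in every library (points) with the group mean and SD (bars, n = 3), on linear axes from 0. Irf1, Tap1 and Psmb9 are high in the knockout and in Treg DMSO; Every Treg library of Isg20 and Isg15 is above every TH17 library, and in Isg15 TH17 DMSO replicate 2 (4.7 TPM) stands above the other two of its group.

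Upstream of these genes, Ifng was the sole interferon gene with signal: the other 7 interferon ligand genes examined were listed at 0 in every library. Ifng stood at 16.89, 15.12 and 12.73 TPM in the knockout, at 0.25, 0.6 and 0.42 TPM in TH17 DMSO and at 25.03, 26.56 and 23.09 TPM in Treg DMSO. The change in the knockout was 3.48 ± 0.33 on the log2 scale (limma adjusted p = 9.8e-07). Ifng did not overlap between those groups. No TH17 DMSO library of Ifng reached the 1 TPM filter, however, so that direction was largely set by the filter. Ifngr2, a chain of the IFNγ receptor, moved the opposite way and stood at 3, 2.7 and 3.02 TPM in the knockout against 17.88, 19.53 and 18.34 TPM, a fall of 6.39-fold (limma adjusted p = 1.56e-10). Socs1, a feedback inhibitor of cytokine signalling, was 2.36-fold lower and Irf4, a factor of activated T cells, 3.60-fold lower. Of 17 tested receptor and signalling genes 8 rose and 5 fell, and of 12 upstream sensing genes 6 rose and 3 fell. Of 41 other tested interferon-stimulated genes, 27 rose and 5 fell, with Mndal (4.25 ± 0.15 on the log2 scale, limma adjusted p = 2.37e-11) and Irgm1 (2.43 ± 0.08, limma adjusted p = 1.47e-11) as the strongest calls among those that rose. The annotated model of Mndal overlaps that of Ifi203 on the same strand, so they may share reads and the Mndal value is uncertain. Ifitm1, which restricts viral entry, fell by 3.54 on the log2 scale (SE 0.15, limma adjusted p = 1.65e-10). Of 13 MHC class I chain and loading genes 10 rose and 1 fell. H2-K1, a classical heavy chain, stood at 3036, 2416 and 2434 TPM against 921, 978 and 1117 TPM. H2-Q7 rose 4.82-fold, but it is nearly identical to neighbouring H2-Q genes and the counting may divide their reads, so its value is uncertain.

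Treg DMSO cultures exceeded TH17 DMSO cultures in 32 of the 35 tested genes and were lower in 1, where 32.3% of all tested genes were higher and 12.5% lower. The median difference was 1.51 on the log2 scale against 0.18 for all tested genes, and 27 of 35 were at least 2-fold higher, against 7.46% of all. In 34 of 35 the libraries did not overlap, against 52.9% of all. Red blood cell markers summed to 7.31 to 13.55 TPM in Treg DMSO and 0 to 0.97 in TH17 DMSO, with both tested markers called higher. Neither could reach the 1 TPM filter in TH17 DMSO, so that direction was largely set by the filter. The part of these markers was not tested. This comparison shares the TH17 DMSO libraries with the knockout comparison, so the values are set side by side and no correlation is given. Irf8 stood at 345.48, 359.21 and 357.67 TPM in Treg DMSO, above every knockout library as well as every TH17 library, 6.04-fold over TH17 DMSO (2.58 ± 0.07 on the log2 scale, limma adjusted p = 7.45e-12). Irf1, at 137.29, 136.12 and 143.55 TPM, was 6.86-fold over TH17 DMSO (limma adjusted p = 2.31e-11), and Irf7 was 6.23-fold over it.

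Among the effectors and sensors 9 of 10 tested genes were higher in Treg DMSO and none was lower. Isg20 stood at 65.72, 73.79 and 69.7 TPM in Treg DMSO and at 7.21, 5.83 and 7.9 TPM in TH17 DMSO. The difference was 3.16 ± 0.16 on the log2 scale (limma adjusted p = 2.69e-09), beside 0.60 ± 0.16 for the knockout (limma adjusted p = 0.00753). Isg15 stood at 17.38, 17.34 and 19.51 TPM in Treg DMSO, above all TH17 libraries, and its difference was 2.77 ± 0.33 (limma adjusted p = 1.18e-05). Mx1 stood at 6.28, 3.83 and 2.93 TPM and the highest TH17 library was at 0.47 TPM, so it was tested only through the group where it was high. Xaf1 (12.6-fold) and Rtp4 (7.57, 5.38 and 5.09 TPM) were the other 2 among the 5 largest differences with Isg20, Isg15 and Irf1. Rtp4 was under 1 TPM in every TH17 DMSO library, so it too was tested only through groups where it was high. Samhd1, the most abundant effector, was 2.23-fold higher, Ifih1 7.69-fold and Ifi27l2a 3.28-fold.

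In antigen processing all 7 genes were higher in Treg DMSO. Tap1 stood at 252.94, 243.18 and 242.05 TPM (4.14-fold) and Psmb9 at 184.03, 199.85 and 188.29 TPM (4.77-fold). The Tap1 libraries were all above those of the knockout and the Psmb9 libraries overlapped the knockout range. B2m stood at 3448, 3125 and 3146 TPM (2.23-fold), below every knockout library, and Tapbp at 242.26, 230.08 and 236.23 TPM was below the 305.42 TPM of the lowest knockout library. Ly6e was lower in Treg DMSO, by 0.40 on the log2 scale (limma adjusted p = 0.000298), and Bst2 (0.31, limma adjusted p = 0.138) and Ifi35 (0.08, limma adjusted p = 0.296) were not called. Ifng was 4.19 higher on the log2 scale (limma adjusted p = 2.33e-07) and Ifnar1, a chain of the type I interferon receptor, 2.75-fold higher. For Ifng no TH17 DMSO library reached the 1 TPM filter, so its direction was largely set by the filter. Of the 41 other interferon-stimulated genes 36 were higher and 1 lower.

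**Figure D3:**
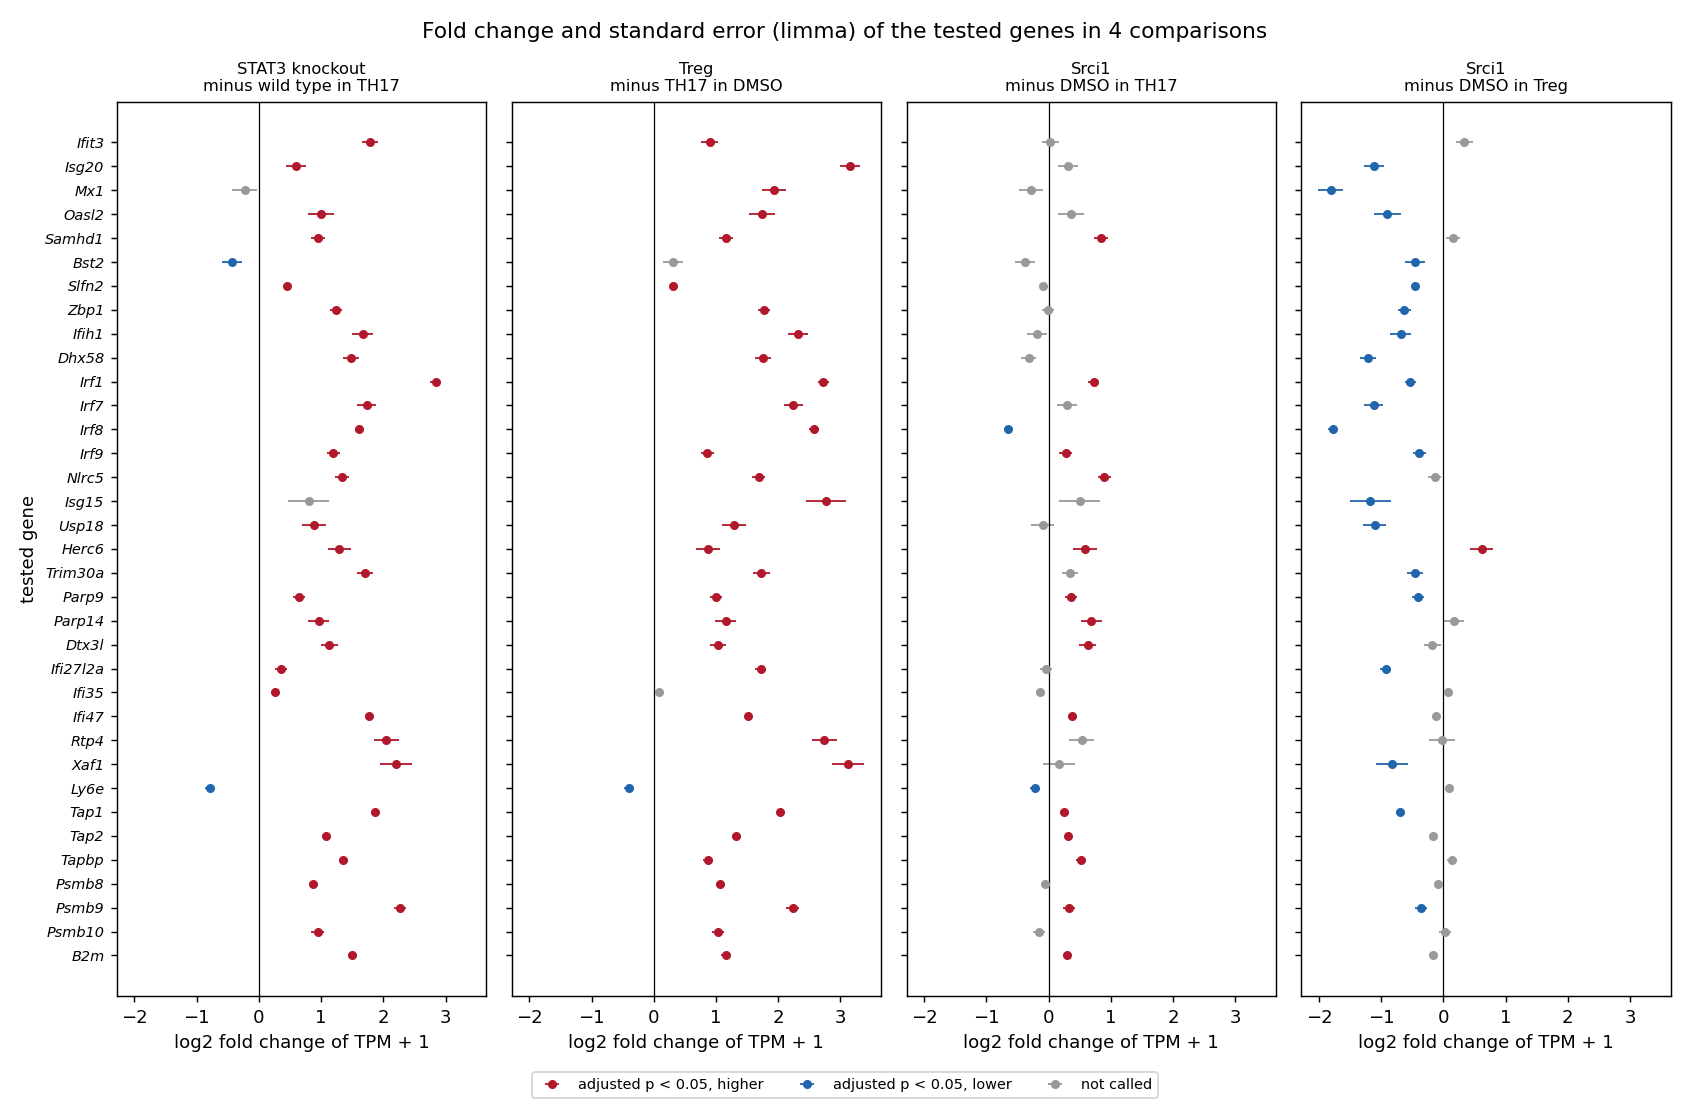
Change on the log2(TPM + 1) scale with its standard error (bars) for the 35 tested genes in 4 comparisons; red and blue mark an adjusted p under 0.05, grey marks genes not called. Red points fill the knockout panel (31 of 35) and the Treg against TH17 panel (32), blue points the Srci1 in Treg panel (20), and no called Srci1 change in TH17 reaches 2-fold on this scale; 8 of its 14 red points are lost under median-of-ratios scaling.

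Srci1 lowered the set in Treg cultures. 20 of 35 tested genes fell and 1 rose, where 10% of all tested genes fell and 17.1% rose. The median change was -0.40 on the log2 scale against 0.11 for all tested genes, and 7 fell at least 2-fold, against 2.66% of all. In 29 of 35 the libraries did not overlap, against 50.3% of all. Of the 29 genes averaging at least 5 TPM, 17 fell, 5 of them at least 2-fold, and none rose. The summed markers of red blood cells (23.49 to 34.75 TPM with Srci1, 7.31 to 13.55 with DMSO) and of gamma delta T cells (28.99 to 34.55 against 7.03 to 8.72 TPM) differed between the same groups. In each list 1 of the 2 tested markers was called higher and the other was not called. The part of these markers was not tested.

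Irf8 fell from 345.48, 359.21 and 357.67 TPM to 99.87, 103.67 and 103.27 TPM. No library of either group came near the other group, the mean was 3.46-fold lower, and the change was -1.78 ± 0.07 on the log2 scale (limma adjusted p = 3.01e-09). Mx1 fell by 1.81 on the log2 scale (SE 0.20, limma adjusted p = 1.89e-05) to 0.48, 0.27 and 0.7 TPM, all below the lowest DMSO library. These levels were far nearer to the TH17 DMSO libraries, at 0.29 to 0.47 TPM, than to the Treg DMSO libraries. Mx1 reached 1 TPM in the 3 Treg DMSO libraries alone, so it was tested only through the group where it was high. Dhx58 fell from 12.13, 15.9 and 13.4 TPM to 5.07, 5.45 and 5.64 TPM, 2.56-fold. Irf7 fell from 15.98, 15.45 and 13.84 TPM to 6.25, 6.09 and 6.92 TPM, 2.35-fold (limma adjusted p = 0.00013). Isg20 fell to 31.03, 30.36 and 33.27 TPM, 2.21-fold, and Isg15 to 8.25, 9.19 and 5.36 TPM, 2.38-fold (limma adjusted p = 0.0168). These last 2 remained above every TH17 library even with Srci1. The Isg15 call was lost without Treg DMSO replicate 3 or Treg Srci1 replicate 3 (adjusted p up to 0.0747).

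By role, all 3 sensors fell, as did 4 of 5 regulators, 5 of 7 tested effectors, 4 of 7 modifier genes, 2 of 6 other inducible genes and 2 of 7 antigen processing genes. Irf1 fell 1.45-fold, to 91.46, 97.33 and 97.97 TPM (limma adjusted p = 0.000593), and Irf9 1.32-fold, a call lost without Treg DMSO replicate 1 or Treg Srci1 replicate 3 (adjusted p up to 0.0642). Usp18 fell 3.16-fold, Oasl2 2.81-fold, Ifi27l2a 1.90-fold and Ifih1 1.70-fold, and falls were also called for Xaf1, Zbp1, Trim30a, Slfn2, Bst2 and Parp9. With a pseudocount of 0.1, Oasl2 (limma adjusted p = 0.0503), Bst2 (0.0507), Isg15 (0.0516) and Xaf1 (0.0681) lost their calls, which left 16 falls. The calls of Xaf1 (Treg DMSO replicate 1 or 2, Treg Srci1 replicate 1 or 3) and Trim30a (Treg DMSO replicate 1 or 3, Treg Srci1 replicate 2 or 3) were each lost without any of 4 single libraries, with adjusted p up to 0.122 and 0.0804, and that of Bst2 without 11 of the 15 (up to 0.185). Tap1 fell 1.62-fold, from 252.94, 243.18 and 242.05 TPM to 145.27, 156.52 and 153.28 TPM (limma adjusted p = 8.02e-06). Psmb9 fell 1.29-fold (limma adjusted p = 0.0146; 0.0577 without Treg DMSO replicate 2). Psmb8 stood at 1030 ± 12 TPM with DMSO and 966 ± 44 with Srci1 (SD, n = 3 libraries) and was not called, nor were Psmb10, Tap2, Tapbp and B2m. Tap2 was called lower under both other scalings, and B2m under median-of-ratios scaling.

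Nlrc5 was not called in this comparison (-0.14 ± 0.11, limma adjusted p = 0.345), at 74.48, 71.03 and 66.76 TPM with DMSO and 66.88, 55.75 and 70.12 TPM with Srci1, although both other scalings called it lower. Herc6 was the 1 gene that rose, from 4.12, 4.02 and 4.97 TPM to 7.27, 6.7 and 7.66 TPM (0.62 ± 0.19, limma adjusted p = 0.0269). Leaving out Treg DMSO replicate 1 or 2 or Treg Srci1 replicate 1 or 3 ended that call (adjusted p up to 0.0849). Ifit3, Samhd1, Parp14, Dtx3l, Ifi47, Ifi35, Rtp4 and Ly6e were not called, although Dtx3l (adjusted p = 0.0269 and 0.0262) and Ifi47 (0.0123 and 0.00555) were called lower under median-of-ratios scaling and quantile normalization. Among the genes upstream, Ifng fell from 25.03, 26.56 and 23.09 TPM to 5.02, 14.27 and 5.67 TPM (limma adjusted p = 0.00295), and Ifngr1 fell 1.58-fold. Of the other interferon-stimulated genes, 11 of 41 fell and 9 rose. Ube2l6, the ISG15 conjugating enzyme, fell by 1.37 on the log2 scale and Oas3, which makes the RNase L activator, by 1.41. Of 13 class I chain and loading genes 6 fell and 1 rose, and H2-T23, a non-classical chain, fell 1.86-fold.

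In TH17 cultures Srci1 moved the set little, and with TPM as deposited mostly upward. 14 of 35 tested genes rose and 2 fell, where 33.8% of all tested genes rose and 7.08% fell. The median change was 0.29 on the log2 scale against 0.21 for all tested genes, so as a list the set was close to the background. No called change reached 2-fold on the log2(TPM + 1) scale, where 4.31% of all genes rose and 1.28% fell by that much, and in 21 of 35 the libraries did not overlap, against 48.9% of all. With a pseudocount of 0.1 in place of 1, which gives low genes more weight, Rtp4 (2.07, limma adjusted p = 0.00321) and Oasl2 (1.43, limma adjusted p = 0.0335) were also called higher, both over 2-fold, where their DMSO libraries stood at 0 to 0.11 TPM. The count also depended on scaling: with median-of-ratios scaling 6 rose and 8 fell, and with quantile normalization 8 and 8. Bst2, Dhx58, Ifi35, Slfn2, Psmb8 and Psmb10 were called lower under both of these scalings, and Zbp1 under quantile normalization alone. Psmb8 had limma adjusted p = 0.0336 and 0.0367, and Psmb10 0.0299 and 0.0286. The transcript share of ribosomal proteins was 21.52% to 22.68% with Srci1 and 26.51% to 30.42% with DMSO, and its part in the shift of all genes was not tested. Plasmacytoid dendritic cell markers summed to 3.75 to 6.81 TPM with Srci1 and 0.06 to 0.43 with DMSO. Only 1 of these 4 markers could be tested, and Siglech and Klk1 were listed at 0 in both groups. Red blood cell markers summed to 3.42 to 5.23 against 0 to 0.97, with 1 of 2 tested markers called higher. CD4 T cell markers summed to 1385 to 1411 against 1772 to 1866, with 3 of 5 called lower. The part of all these markers in these results was not tested.

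6 of the 14 kept their call under both scalings: Samhd1, Irf1, Nlrc5, Parp14, Dtx3l and Tapbp. Nlrc5 stood at 44.06, 39.75 and 37.95 TPM with Srci1 and 24.51, 20.73 and 18.92 TPM with DMSO (0.90 ± 0.11 on the log2 scale, limma adjusted p = 2.41e-05). Irf1 stood at 39.04, 33.25 and 30.66 TPM against 22.03, 20.72 and 18.08 TPM (0.73 ± 0.09, limma adjusted p = 3.28e-05). In both genes every Srci1 library was above every DMSO library, yet for Irf1 far below the 142.51 TPM of the lowest knockout library. Samhd1 rose 1.78-fold (limma adjusted p = 7.58e-05), Parp14 1.66-fold, Dtx3l 1.55-fold and Tapbp 1.43-fold. Tap1 (1.20-fold), Tap2 (1.25-fold), Psmb9 (1.27-fold), Parp9 (0.37 on the log2 scale), Irf9 (1.22-fold) and Herc6 (1.75-fold) were called with TPM as deposited and under neither other scaling. The Psmb9 call was also lost without TH17 DMSO replicate 1 or TH17 Srci1 replicate 2 (adjusted p up to 0.0722), and that of Herc6 without TH17 DMSO replicate 2 or 3 or TH17 Srci1 replicate 1 or 3 (up to 0.112). B2m (1.23-fold) and Ifi47 (0.38 on the log2 scale) kept their call under quantile normalization and lost it under median-of-ratios scaling. Under those scalings Tap1 (median-of-ratios, -0.01) or Irf9 (quantile, -0.01) changed sign. Irf9 (limma adjusted p = 0.048) also lost its call when any of 10 of the 15 single libraries was left out, with the adjusted p reaching 0.188 without TH17 DMSO replicate 3.

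Irf8 fell in TH17 cultures too, from 57.64, 64.24 and 54.12 TPM to 33.11, 37.63 and 40.73 TPM, 1.58-fold (limma adjusted p = 2.08e-05), with no overlap. Ly6e fell 1.17-fold (limma adjusted p = 0.0185; 0.0842 without TH17 Srci1 replicate 1), and quantile normalization ended that call (adjusted p = 0.395). Isg15 was at 2.71, 2.62 and 3.57 TPM with Srci1 and was not called (0.50 ± 0.33, limma adjusted p = 0.245), while without TH17 DMSO replicate 2 the change was 1.01 (adjusted p = 0.00166). Stat2 rose 1.88-fold (limma adjusted p = 0.00124) and Ifnar1 2.02-fold (limma adjusted p = 1.08e-05), whereas Ifng (limma adjusted p = 0.288) was not called. Mndal, which may share reads with Ifi203, rose from 3.47, 1.77 and 2.17 TPM to 15.02, 14.87 and 12.05 TPM, and H2-D1, a classical class I chain, 1.46-fold. Of 41 other interferon-stimulated genes 22 rose, 5 of them at least 2-fold, and 5 fell. Of all tested genes 33.8% rose, 4.31% rose at least 2-fold and 7.08% fell. Of 17 receptor and signalling genes 10 rose and 3 fell, and of 13 class I chain and loading genes 7 rose and 1 fell. These related lists were not recounted under the other scalings.

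The effect of Srci1 thus differed between the cell types, and that difference was tested directly as the effect in TH17 minus the effect in Treg cultures. It was higher in TH17 for 24 of 35 genes and lower for 1, where 11.3% of all tested genes were higher and 2.95% lower. The median difference was 0.69 on the log2 scale against 0.13 for all tested genes, and 9 exceeded 2-fold, against 3.73% of all. Of the 29 genes averaging at least 5 TPM, 6 exceeded 2-fold. All 5 regulators were among the 24: Irf7 differed by 1.41 ± 0.22 (limma adjusted p = 0.000665), Irf1 by 1.26 ± 0.13 (2.26e-05), Irf8 by 1.14 ± 0.11 (1.3e-05), Nlrc5 by 1.04 ± 0.15 (0.000394) and Irf9 by 0.67 ± 0.15 (0.00849). In Irf8 both effects were negative and the one in Treg cultures was the larger. Tap1 differed by 0.95 ± 0.10 (limma adjusted p = 3.19e-05) and Psmb9 by 0.70 ± 0.14 (limma adjusted p = 0.00434, and 0.0682 with median-of-ratios scaling). Isg15 (1.67 ± 0.46, limma adjusted p = 0.0278) lost its call when any of 6 single libraries was left out (adjusted p up to 0.0685): TH17 DMSO replicate 3, TH17 Srci1 replicate 3, any Treg DMSO replicate or Treg Srci1 replicate 3. Mx1 (1.53 ± 0.28, limma adjusted p = 0.0025) and Isg20 (1.43 ± 0.23, limma adjusted p = 0.000948) were the other 2 of the 5 largest differences. Mx1, however, was tested only through Treg DMSO, where it was high, and lost its call with a pseudocount of 0.1 (limma adjusted p = 0.0863).

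By sign alone, 17 genes had a positive change in TH17 and a negative one in Treg cultures, 10 were negative in both, 5 positive in both and 3 negative in TH17 and positive in Treg. Neither these signs nor the joint calls that follow were counted over all tested genes, so the counts only describe the set. The TH17 signs also depend on scaling: the set's median change there was 0.294 with TPM as deposited and 0.024 with median-of-ratios scaling. 5 genes were called higher in TH17 and lower in Treg cultures (Irf1, Irf9, Parp9, Tap1 and Psmb9), and under both other scalings Irf1 alone of the 5 kept its call in TH17. Ifng (2.07 ± 0.47, limma adjusted p = 0.00997) differed in the same direction as the regulators. The lone gene called lower, Ly6e (-0.32 ± 0.10, limma adjusted p = 0.0427), lost its call in 10 of 15 fits with a library left out (adjusted p up to 0.107, without any TH17 DMSO replicate, TH17 Srci1 replicate 1 or 2, Treg DMSO replicate 1 or 2, or any Treg Srci1 replicate). Under quantile normalization Ly6e lost its call (adjusted p = 0.183), and Ifi35 was called lower there (-0.35, limma adjusted p = 0.015) and under median-of-ratios scaling (-0.37, limma adjusted p = 0.0395).

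**Figure D4:**
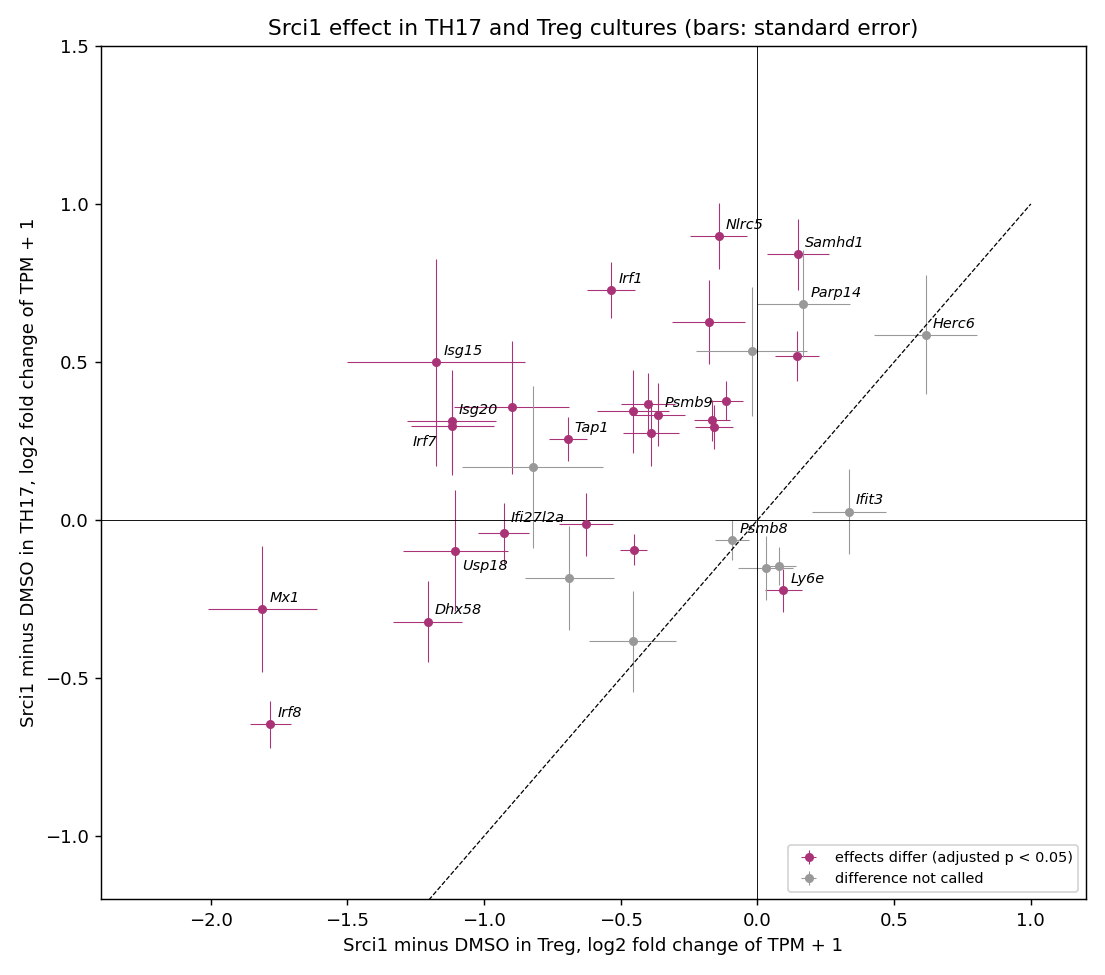
Change with Srci1 in Treg (x axis) and TH17 cultures (y axis) on the log2(TPM + 1) scale for the 35 tested genes, with standard errors (bars); the dashed line marks equal effects and magenta marks genes whose effects differ at an adjusted p under 0.05. 24 of the magenta points lie above the line and Ly6e below it; the small positive TH17 changes of Tap1 and Irf9 lose their sign under median-of-ratios scaling and quantile normalization respectively.

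Set directly against the knockout, TH17 cultures with Srci1 held less of the set: 28 of 35 genes were lower and 1 higher, where 18.4% of all tested genes were lower and 30.6% higher. The median difference was -0.92 on the log2 scale against 0.11 for all tested genes, and 15 were at least 2-fold lower, against 6.02% of all. In 28 of 35 the libraries did not overlap, against 56.1% of all. The largest were Irf8 (-2.26 ± 0.07, limma adjusted p = 1.9e-11), Irf1 (-2.11 ± 0.09, 2.06e-10), Xaf1 (-2.03 ± 0.26, 1.72e-05), Psmb9 (-1.93 ± 0.10, 1.4e-09) and Ifih1 (-1.85 ± 0.16, 4.9e-07). All 7 antigen processing genes were lower with Srci1 than in the knockout. Irf8 lay on opposite sides of TH17 DMSO, up in the knockout and down with Srci1. Isg20, Mx1, Samhd1, Bst2, Isg15 and Parp14 were not called, and Ly6e was higher with Srci1. Samhd1 stood at 362.16, 298.71 and 335.05 TPM with Srci1 and at 344.93, 409.33 and 326.15 TPM in the knockout, with overlapping ranges. Under median-of-ratios scaling and quantile normalization both Samhd1 (adjusted p = 0.00962 and 0.0405) and Parp14 (0.0177 and 0.00889) were called lower with Srci1.

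The immunoproteasome subunits replace constitutive ones, Psmb8 in place of Psmb5, Psmb9 of Psmb6 and Psmb10 of Psmb7, and the ratio within a library is unaffected by a scale factor per library. The Psmb9 to Psmb6 ratio of TPM was 0.135 ± 0.013 in TH17 DMSO, 0.163 ± 0.005 in TH17 with Srci1, 0.623 ± 0.035 in the knockout, 0.515 ± 0.012 in Treg DMSO and 0.419 ± 0.011 in Treg with Srci1 (SD, n = 3 libraries each). No 2 of these groups overlapped. The Psmb8 to Psmb5 ratio was 1.77 ± 0.11, 1.49 ± 0.09, 4.07 ± 0.11, 3.52 ± 0.21 and 3.30 ± 0.14 in the same order, and the Psmb10 to Psmb7 ratio 0.315 ± 0.047, 0.264 ± 0.017, 0.620 ± 0.069, 0.554 ± 0.015 and 0.538 ± 0.021. In all 3 pairs every knockout and Treg library was above every wild-type TH17 library. Of the constitutive subunits, Psmb5 fell 1.27-fold in the knockout (limma adjusted p = 0.00188), and Psmb6 and Psmb7 were not called there (limma adjusted p = 0.356 and 0.713). Psme1, a subunit of the interferon-inducible proteasome activator, rose 1.92-fold in the knockout (limma adjusted p = 1.58e-08) and was 1.62-fold higher in Treg DMSO (limma adjusted p = 5.71e-07).

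**Figure D5:**
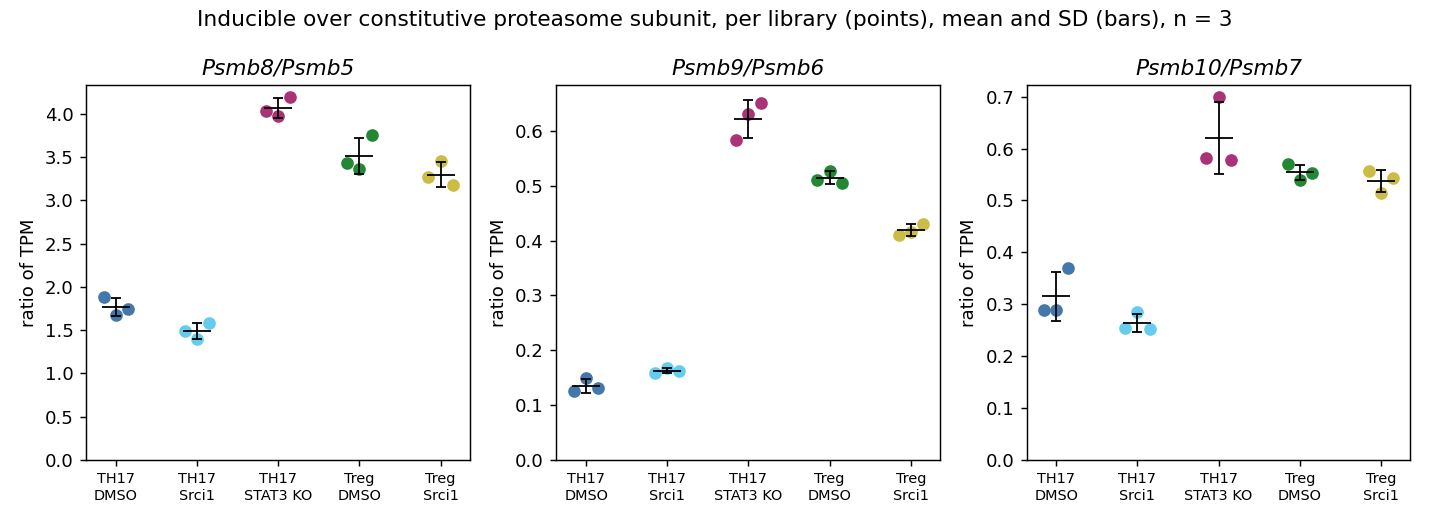
Ratio of TPM of each inducible proteasome subunit to the constitutive subunit it replaces, in every library (points) with the group mean and SD (bars, n = 3). In all 3 panels the knockout and Treg libraries lie above the wild-type TH17 libraries, and the Psmb9 to Psmb6 ratio runs from 0.125 in the lowest TH17 DMSO library to 0.652 in the highest knockout library.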

How the data were processed

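Poly(A) RNA-seq of 15 mouse CD4 T cell libraries was used as TPM values that the authors deposited. The submitters' processing notes name STAR (2.7.9a), RSEM (1.3.3) and GRCm38 without saying what each did. No source used here states a strand setting or annotation release, so reads of overlapping genes may not be separable. TPM keeps no depth (every library sums to 1000000), so no counting interval or floor was computed. Symbols were matched for 55154 of 55421 IDs. The genes and lists were chosen with earlier results of these data known. Any of the 40 genes could be named; of related genes, Stat2, Ifng, H2-K1, Psmb5 and up to 4 per list and comparison with the smallest adjusted p, and Psmb6 and Psmb7 for the ratios. limma 3.58.1 (R 4.3.3) was fitted with a mean-variance trend to log2(TPM + 1) of the 12800 genes with at least 1 TPM in 3 libraries, as 5 group means with 10 residual degrees of freedom, and was tested on simulated data; log2 changes of low genes are understated. Tried as alternatives were a pseudocount of 0.1, no filter, a 5 TPM filter, scaling by median-of-ratios or quantiles, a fit of the compared groups alone, a replicate block and leaving out each library. 1 related gene is not reported here.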

Additional observations from a re-analysis of the deposited data

Results flagged for a closer look

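The effect of Srci1 differed between TH17 and Treg cultures in the genes below, by a test of the difference itself (limma interaction, adjusted p under 0.05). Each value is the log2 change with Srci1 in TH17 minus that in Treg cultures. Of the transcription regulators, Irf1 1.2642, Irf7 1.4126, Irf8 1.1355, Irf9 0.6659 and Nlrc5 1.0409 all had positive differences. Effectors and sensors gave positive differences for Isg20 1.4323, Mx1 1.5307, Oasl2 1.2558, Samhd1 0.6927, Slfn2 0.3598, Zbp1 0.6133 and Dhx58 0.8849. Genes of ISG15, ubiquitin and ADP-ribose modification gave Isg15 1.6744, Usp18 1.0086, Trim30a 0.7994, Parp9 0.7677 and Dtx3l 0.8046. The other interferon-inducible genes gave Ifi27l2a 0.8872, Ifi47 0.4924 and Ly6e -0.317, with Ly6e the sole called negative value among the 35 tested genes. Antigen processing genes gave Tap1 0.9496, Tap2 0.4814, Tapbp 0.3746, Psmb9 0.6981 and B2m 0.4539. The related genes outside the set that follow are only part of those called. Of 41 other interferon-stimulated genes 18 were called higher and 3 lower. Of 17 receptor and signalling genes 6 were called higher and 2 lower, and of 13 class I chain and loading genes 9 were called higher. Related genes outside the set gave Ifng 2.0697, Ifnar1 0.9457, Ifngr1 0.9454, Stat2 1.3286 and Socs1 -0.6505 among ligands, receptors and signal transducers. Other interferon-stimulated genes gave Oas3 1.3317, Ifitm1 -1.4879, Mndal 1.6053 (which may share reads with Ifi203), Ube2l6 0.8436 and Irgm1 1.1219. MHC class I heavy chain genes, whose near-identical copies make single values uncertain, gave H2-K1 0.4142, H2-D1 0.6679, H2-Q7 1.2185, H2-T22 0.6436 and H2-T23 0.5977. Slfn2, Tapbp, Psmb9, B2m and H2-K1 lost the call under median-of-ratios scaling (limma adjusted p from 0.0682 to 0.398), and Usp18, Ly6e, Ube2l6 and H2-K1 under quantile normalization (from 0.053 to 0.183). Mx1 (0.0863) and Usp18 (0.0935) lost it with a pseudocount of 0.1, Tapbp (0.0554), Ly6e (0.0698) and H2-K1 (0.0796) with no filter, Isg15 (0.0502) with only the groups compared, and Ly6e (0.0645) and H2-K1 (0.0762) with the replicate block. Single libraries left out ended the call of Tapbp in 9 of 15 fits (adjusted p up to 0.0954), of Ly6e in 10 (up to 0.107), of H2-K1 in 11 (up to 0.106), of Isg15 in 6 (up to 0.0685) and of Usp18 without Treg DMSO replicate 2 or Treg Srci1 replicate 2 (up to 0.0584).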

How the results depend on the processing

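The counts of genes called higher and lower kept within 1.5 times of their value in most alternatives. In TH17 cultures with Srci1, 14 higher and 2 lower became 6 and 8 with median-of-ratios scaling and 8 and 8 with quantile normalization. There Tap1 changed sign to -0.0117 (limma adjusted p = 0.907, median-of-ratios) and Irf9 to -0.0108 (limma adjusted p = 0.943, quantile). Genes called lower in the knockout went from 2 to 1 with no filter, with quantile normalization and with only the groups compared, each time losing Bst2. Genes called higher by Srci1 in Treg went from 1 to 3 with only the groups compared. Genes called lower for the difference of Srci1 effects went from 1 to 0 with no filter and with the replicate block, and to 2 with median-of-ratios scaling. The replicate block gave 15 higher and 3 lower for Srci1 in TH17, and its other counts were within 1 of the main ones. Leaving out 1 library gave, higher and lower, 12 to 15 and 2 to 3 for Srci1 in TH17, 31 to 32 and 1 to 2 for the knockout, 0 to 2 and 15 to 21 for Srci1 in Treg, 32 to 33 and 1 to 1 for Treg against TH17, 21 to 24 and 0 to 1 for the difference of effects, and 1 to 1 and 26 to 28 for Srci1 against the knockout. Median-of-ratios scaling moved the higher share of all calls from 82.7% to 50.2% (Srci1 in TH17), 62.1% to 50.3% (knockout), 63% to 43.7% (Srci1 in Treg), 72% to 49.2% (Treg against TH17), 79.2% to 61.6% (difference) and 62.4% to 50.1% (Srci1 against knockout), and the median change of all genes in the first from 0.213 to -0.007. Same-numbered libraries of different groups deviated together with correlations of -0.171 to 0.128, and differently numbered ones with -0.301 to 0.254. The numbers thus gave no sign of pairing, but 3 libraries per group cannot exclude it. The main fit used no pairing. The causes were not tested. The depth is unknown, and genes under 1 TPM were not resolved.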
